A study of Drosophila melanogaster with 6 samples.

Results

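The genes that set up the boundary between the dorsal and ventral compartments of the wing and haltere discs were compared between those tissues. The members are 10 genes taken by name: apterous (ap), its partner Chip (Chi) and its antagonist Beadex (Bx), the receptor Notch (N), its ligands Serrate (Ser) and Delta (Dl), the glycosyltransferase fringe (fng), the nuclear effector Suppressor of Hairless (Su(H)), and the cell surface proteins capricious (caps) and tartan (trn). All 10 had a row in the authors' deposited table, which lists 7762 genes. The RNA came from wild-type Canton S Drosophila melanogaster, as 3 samples of haltere discs and 3 samples of wing discs from wandering larvae of the last instar (L3). Both groups share strain, genotype and stage and differ in the disc dissected. The number of discs or larvae behind a sample and the sex of the larvae are not given in the sources used here. Imaginal discs are larval epithelia: the wing disc gives rise to the wing and the notum, and the haltere disc to the balancing organ of the next segment, whose identity depends on the homeotic gene Ultrabithorax (Ubx).

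In the wing disc, the LIM-homeodomain protein Ap marks dorsal cells and acts in a complex with the adaptor Chi. Bx encodes an LMO protein that competes with Ap for Chi, and Ap turns on fng and Ser in dorsal cells. Fng adds sugar to the extracellular domain of N, which makes the receptor more responsive to Dl and less responsive to Ser, so that signaling is concentrated where dorsal and ventral cells meet. There the cleaved receptor enters the nucleus, binds Su(H) and turns on boundary genes such as wg and ct. The transmembrane proteins encoded by caps and trn are also under Ap control in dorsal cells early in disc growth and affect the affinity of cells at the boundary.

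For each gene the authors' file gives a fold change on the log2 scale, the mean expression of both tissues in log2 CPM (reads per gene, scaled to equal library totals), a p-value and an FDR, with no value for a single sample. Depth is therefore unknown and no spread between replicates can be shown. Which tissue is the numerator is stated nowhere in the file or the labels. Ubx, whose RNA marks the haltere disc, stood at -5.22 (edgeR FDR 2.98e-59) in the authors' deposited table, so negative values are read as higher in the haltere disc. Antp, the homeotic gene of the wing-bearing segment, had the opposite sign there, at 2.08 (edgeR FDR 3.56e-10). All 12 listed markers of wing and haltere discs had a row. Of these, 2 passed an FDR under 0.05 (edgeR), Ubx and Antp, against 1.34% of all genes. An unadjusted p under 0.05 (edgeR) was found for 5, against 4.32% of all genes. In sign, 5 of the 12 were positive and 7 negative, with a median of -0.15.

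Markers of other larval tissues differed between the discs. At an FDR under 0.05 (edgeR), the authors' deposited table called 6 of 10 fat body, 5 of 6 salivary gland and 9 of 12 muscle markers. All of the called ones were higher in the haltere disc, and the lists had median log2 fold changes of -4.09, -3.35 and -1.63. In sign, 9 of the 10 fat body markers were negative. The other, Apoltp, was at 1.41 (edgeR p-value 0.0141, FDR 0.515). Summed over each list, the implied levels in the haltere and wing discs were 1218 and 149 CPM for fat body, 179 and 13.9 CPM for salivary gland, and 348 and 143 CPM for muscle. Of the hemocyte, tracheal and neuronal or glial markers, 0 of 12, 0 of 7 and 0 of 5 were called in the authors' deposited table, with 0, 1 and 1 at an unadjusted p under 0.05 (edgeR) and medians of -0.33, -0.27 and -0.28. Over all 7762 genes, 1.34% were called and 4.32% had an unadjusted p under 0.05 (edgeR). Adult muscle precursors lie under the notum of the wing disc, and 3 of their 9 markers were called higher in the wing disc in the authors' deposited table. The list includes ct and the called E(spl)m6-BFM, which are also pathway genes below. Its median was 0.94, with summed levels of 192 CPM in the haltere disc and 249 CPM in the wing disc. Highly expressed markers weigh most in these sums. The gene how, at 6.80 log2 CPM, had a log2 fold change of 0.04. The called twi and Him, each at 2.17 log2 CPM, were at 1.93 and 2.55. The part of these tissues in the results below was not tested.

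None of the 10 members differed between the discs at an FDR under 0.05 in the authors' deposited table (edgeR), against 1.34% of all 7762 genes. At an unadjusted p under 0.05 there was 1 member, Bx, against 4.32% of all genes. In sign, 5 members were positive and 5 negative in the authors' deposited table. Their median log2 fold change was -0.04, against 0.00 for all genes, and the median size of change was 0.20, against 0.16. Of the 10 members, 9 (90.0%) lay within 0.5 of 0 in the authors' deposited table, as did 89.9% of all genes. In bulk tissue, fewer cells of a type and less RNA per cell cannot be told apart, and a whole-disc value does not show whether a gene is expressed in a different place at the same total amount.

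To show how large a difference the data still allow, a rough 95% interval was derived for each member from an implied standard error, the log2 fold change over the z-score that its p-value stands for. It covers 1 gene at a time, without adjustment for the number of genes tested. By that measure 9 of the 10 intervals lay within a 2-fold difference in either direction, and the exception was Bx. Over all genes, p-values in the authors' deposited table (edgeR) lean to the high side, with 64.7% above 0.5, so intervals from them may be too wide. Of the 10 members, 5 were above 0.5. Whether the members' intervals have the right width was not tested.

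**Figure D1:**
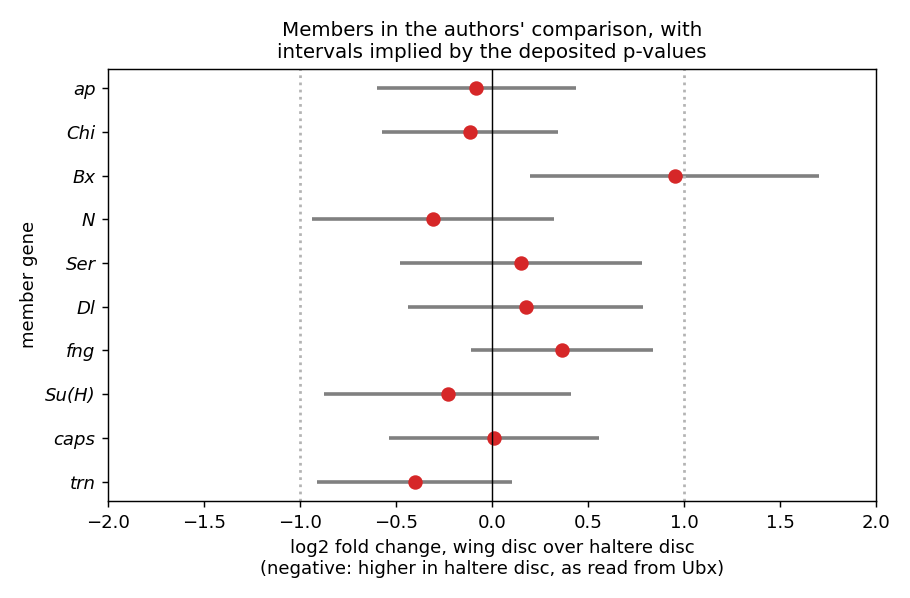
Log2 fold change of each member (x axis, wing disc over haltere disc) from the authors' table, with the rough 95% interval implied by its p-value as a line; dotted lines mark a 2-fold difference. The interval of Bx lies to the right of 0 and reaches 1.70, and the other 9 include 0 and stay between the dotted lines.

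The selector genes were examined first. With a mean of 7.36 log2 CPM in the authors' deposited table, ap was above 92.3% of genes. Its log2 fold change there was -0.08 (edgeR p-value 0.757, FDR 1), with a rough interval of -0.60 to 0.44. Read back to each tissue from the same row, that corresponds to 169 CPM in the haltere disc and 160 CPM in the wing disc. The implied RNA levels of the dorsal selector were thus close to each other in the 2 discs. As a fold of wing disc over haltere disc, the interval ran from 0.66 to 1.35, so differences within that range are not excluded. Chi, whose protein bridges pairs of Ap molecules, was at -0.12 (edgeR p-value 0.617, FDR 1) in the authors' deposited table, with an interval of -0.57 to 0.34. Its implied levels were 56.2 CPM in the haltere disc and 51.8 CPM in the wing disc.

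Bx, which encodes the LMO antagonist of Ap, had the largest change among the members. The authors' deposited table put it at 0.95, a level 1.93-fold higher in the wing disc, and it did not pass (edgeR p-value 0.0131, FDR 0.495). By p-value it ranked 206 of the 7762 genes, and 96.3% of genes had a smaller change in the authors' deposited table. Its rough interval ran from 0.20 to 1.70, a fold of 1.15 to 3.25. The mean of Bx was 3.77 log2 CPM in the authors' deposited table, above 39.6% of genes, with implied levels of 9.33 CPM in the haltere disc and 18.04 CPM in the wing disc. In the authors' deposited table, 1250 genes lay within 0.5 log2 CPM of Bx; of these 20 were called, and the smallest change called was 1.06. The change of Bx was just under the smallest one called at its level of expression, but a call rests on the FDR and not on size. The gene with that smallest called change, CR44811, had an FDR of 0.0305 (edgeR), against 0.495 for Bx. The log2 fold change of Bx exceeded that of ap by 1.03 in the authors' deposited table, and this difference between genes was not tested. In the annotation an exon of Bx overlaps one of HisRS on the same strand, so reads there could be lost or assigned to either gene. HisRS, listed under the older name Aats-his, was at 0.07 (edgeR p-value 0.758) in the authors' deposited table.

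The receptor N was the most expressed member, at 8.96 log2 CPM in the authors' deposited table, above 97.7% of genes. Its log2 fold change of -0.31 there corresponds to a level 1.24-fold higher in the haltere disc, and it did not pass (edgeR p-value 0.341, FDR 1). The implied levels were 550 CPM in the haltere disc and 444 CPM in the wing disc, and the interval of -0.94 to 0.32 included 0. Of the 112 genes of the authors' deposited table within 0.5 log2 CPM of N, 0 were called, so no smallest called change can be given for it.

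Both ligands had small positive values and neither passed. Ser was at 0.15 (edgeR p-value 0.641, FDR 1) in the authors' deposited table, with an interval of -0.48 to 0.78. Dl, made on both sides of the boundary, was at 0.17 (edgeR p-value 0.576, FDR 1) in the authors' deposited table, with an interval of -0.44 to 0.79. The implied levels of Ser were 123 CPM in the haltere disc and 137 CPM in the wing disc, and those of Dl were 152 CPM and 172 CPM. The log2 fold changes of the ligands lay 0.03 apart in the authors' deposited table, a difference that was not tested.

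The modifier fng had a larger positive value than the ligands. It was at 0.36 in the authors' deposited table, a 1.29-fold higher level in the wing disc that did not pass (edgeR p-value 0.134, FDR 1), and its interval of -0.11 to 0.84 included 0. Its implied levels were 46.7 CPM in the haltere disc and 60.1 CPM in the wing disc. An exon of fng overlaps one of CG10589 on the opposite strand, and whether the counting used strand is not stated. CG10589 was little expressed, at 0.67 log2 CPM in the authors' deposited table, against 5.74 for fng.

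Su(H), the DNA-binding effector through which the cleaved receptor acts, had the lowest mean of the members before scaling by length, 3.60 log2 CPM in the authors' deposited table. Its log2 fold change there was -0.23 (edgeR p-value 0.483, FDR 1), and its interval ran from -0.87 to 0.41. The implied levels were 13.1 CPM in the haltere disc and 11.2 CPM in the wing disc.

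The leucine-rich repeat proteins encoded by caps and trn are relatives, and their genes lie near each other on chromosome arm 3L. Of the members, caps had the smallest change, 0.01 (edgeR p-value 0.968, FDR 1) in the authors' deposited table, with an interval of -0.54 to 0.56. The implied levels of caps were 58.3 CPM in the haltere disc and 58.7 CPM in the wing disc. The most negative value among the members was that of trn, -0.40 in the authors' deposited table, a 1.32-fold higher level in the haltere disc that did not pass (edgeR p-value 0.121, FDR 1). Its interval of -0.91 to 0.11 included 0, and its implied levels were 94.8 CPM in the haltere disc and 71.7 CPM in the wing disc. The difference of -0.41 between the log2 fold changes of trn and caps was not tested, and their intervals overlap.

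**Figure D2:**
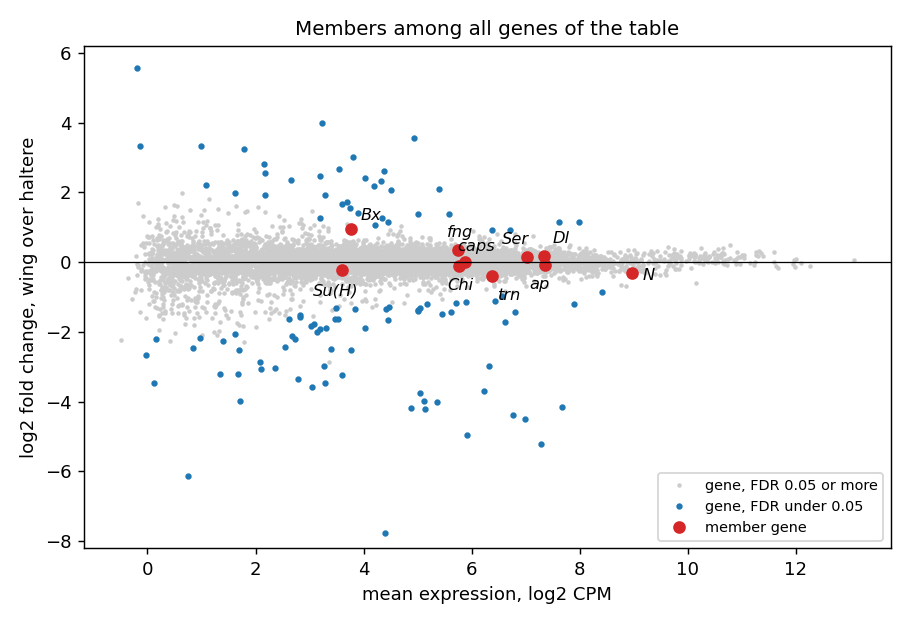
Log2 fold change (y axis, wing disc over haltere disc) against mean expression (x axis, log2 CPM) for all 7762 genes of the authors' table, with genes past an FDR of 0.05 in blue and the members in red. The members lie in the grey cloud around 0, between -0.40 and 0.95, and Bx sits at its upper edge.

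For the members other than N, the smallest change called among genes of similar expression (within 0.5 log2 CPM) ran from 0.92 to 1.28 in the authors' deposited table. The members other than Bx differed by less than 0.5 on the log2 scale. The smallest change called is not a limit of detection, which was not estimated.

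To compare members with each other, mean expression was divided by the length of all annotated exons. This covers 9 members; Dl has no length here, so its place in the order is unknown, and its unscaled mean in the authors' deposited table was 162 CPM beside 165 CPM for ap. Per length, N led at 49.0 CPM per kb of exon, followed by ap at 38.1 CPM per kb, from the means of the authors' deposited table. A middle group held fng at 27.2, trn at 24.7, Chi at 24.1 and Ser at 22.3 CPM per kb in the authors' deposited table. Below them came caps at 12.1, Su(H) at 4.12 and Bx at 3.06 CPM per kb, from the same means in the authors' deposited table. Among these 9, the receptor and the dorsal selector had the highest means per length, and the antagonist and the nuclear effector the lowest. These means come with no spread, so whether neighbours in the order differ cannot be said. With the length of the longest transcript in place of all exons, a setting chosen after the data were seen, Chi passed trn and the other places stayed. Read back to each tissue, Bx was at 2.09 CPM per kb of exon in the haltere disc and 4.03 in the wing disc, beside Su(H) at 4.45 and 3.79, so the order of these genes differed between the discs, a difference that was not tested.

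**Figure D3:**
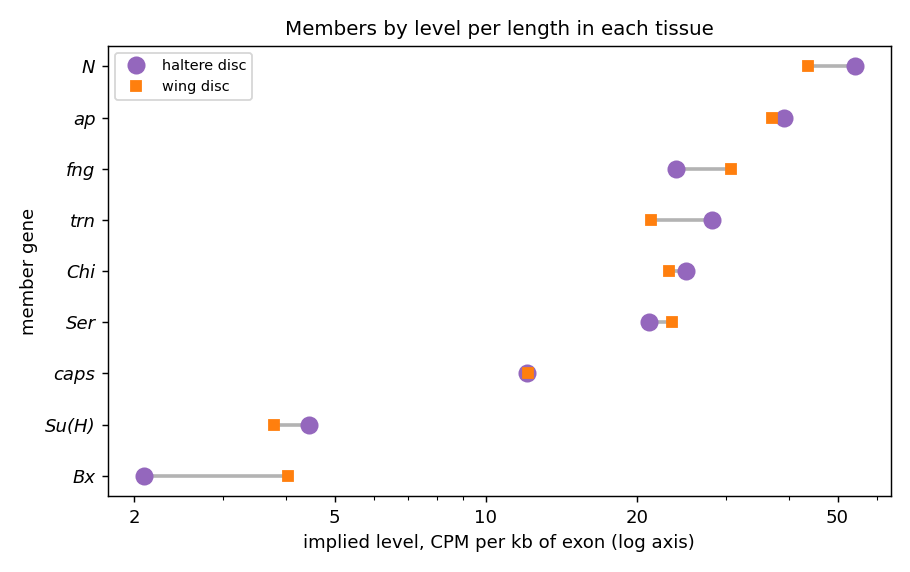
Implied level of 9 members (Dl not shown) in each tissue (x axis, CPM per kb of exon, log axis), with haltere disc as circles and wing disc as squares; no spread is shown, since the table holds means over both tissues. N and ap are highest of the 9 in both discs, the symbols of caps coincide, and those of Bx, at 2.09 and 4.03, are farthest apart.

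Positions follow the Ensembl release 115 annotation (build BDGP6.54), which shares the coordinates of dm6, the build in the submitters' processing notes. Bx spans chromosome X from 18515428 to 18572809 on the plus strand, and N spans X from 3134870 to 3172221, also plus. The gene fng spans 3L from 20925891 to 20949512 on the minus strand, and Ser spans 3R from 27172090 to 27194267, minus. On 3L, trn spans 13114271 to 13118077 and caps 13228692 to 13279642, both plus. Su(H) spans 2L from 15039488 to 15043334, plus. On 2R, ap spans 5706202 to 5727525 and Chi 24031538 to 24033943, both minus. These 9 genes are protein-coding, and the values per gene do not separate their transcripts.

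The rest of the pathway was then read from lists of other genes, of which 98 genes had a row. At an FDR under 0.05 (edgeR) 2 of the 98 were called in the authors' deposited table, 1 in each direction, which is 2.04% against 1.34% of all genes. An unadjusted p under 0.05 was found for 12 of the 98 in the authors' deposited table, 12.2% against 4.32% of all genes. The lists were chosen with earlier results of these data known, so these shares are descriptive. The listed genes also had a higher median expression, 5.88 log2 CPM against 4.39 for all genes. The called genes were E(spl)m6-BFM, higher in the wing disc, and Ocho, higher in the haltere disc. Both belong to the Bearded family of small proteins, known for inhibiting the ubiquitin ligase Neuralized, which promotes the endocytosis of Dl.

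E(spl)m6-BFM was at 2.18 in the authors' deposited table, 4.53-fold higher in the wing disc (edgeR FDR 6.86e-10), at a mean of 4.20 log2 CPM. This gene is also on the list of adult muscle precursor markers, and the other called markers of that list, twi and Him, were at 1.93 and 2.55 in the authors' deposited table (edgeR FDR 0.00501 and 0.000119). The remaining markers of that list were not called, with values from -0.03 for ct to 1.44 for htl. Ocho was at -1.34 in the authors' deposited table, 2.53-fold higher in the haltere disc (edgeR FDR 0.00992). With a Bonferroni adjustment Ocho no longer passed, at 0.784. Other members of the family missed the threshold: E(spl)m4-BFM was at -1.38 (edgeR p-value 0.00349, FDR 0.184) and Brd at -1.13 (edgeR p-value 0.0200, FDR 0.654) in the authors' deposited table. Tom and E(spl)malpha-BFM were at -0.23 and -0.15 in the authors' deposited table (edgeR p-values 0.385 and 0.558). In sign, 5 of the 6 family genes with a row were negative in the authors' deposited table, beside 73.5% of all listed pathway genes and 49.9% of all genes, and only Ocho and E(spl)m6-BFM passed. The other 8 genes of the list, which include those of the ubiquitin ligases neur, mib1 and mib2, were among the 10 of its 14 genes within 0.5 of 0.

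**Figure D4:**
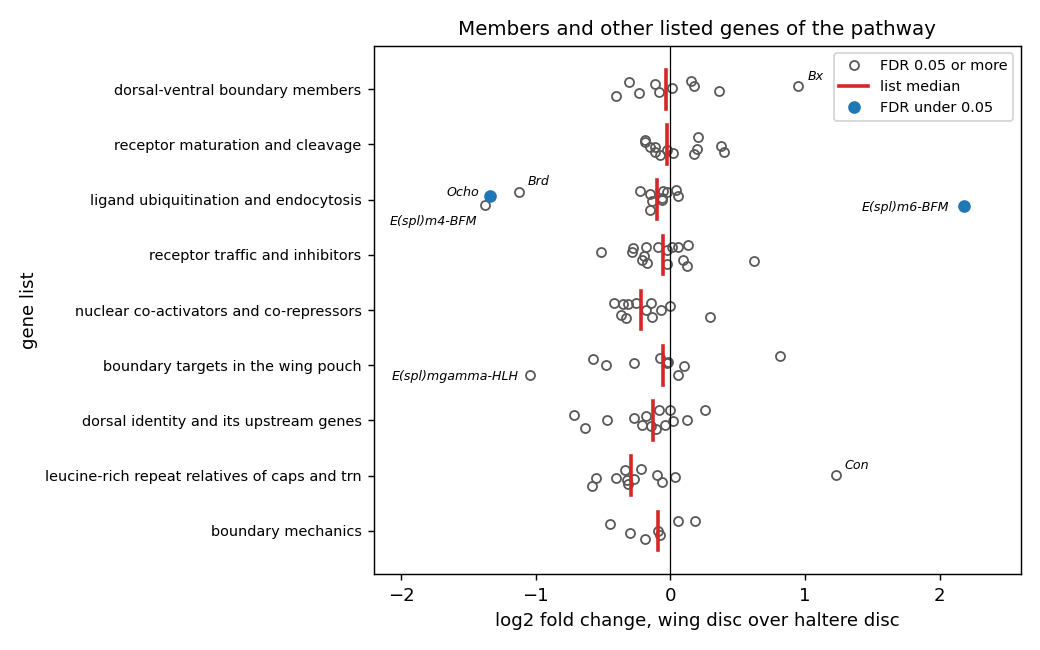
Log2 fold change (x axis, wing disc over haltere disc) of each listed gene from the authors' table, with 1 line of points per list and the list median as a red bar; filled blue points have an FDR under 0.05. The filled points are E(spl)m6-BFM at 2.18 and Ocho at -1.34, both in the list of ligand ubiquitination and endocytosis.

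Genes of receptor maturation and cleavage differed little. Of the 13 with a row in the authors' deposited table, 0 were called and 0 had an unadjusted p under 0.05 (edgeR). Their values ran from -0.19 for Fur1, a furin protease gene, to 0.40 for Gmd, whose product makes a precursor of the fucose added to N. The subunits of gamma-secretase, the protease complex that releases the intracellular part of N, were at -0.11 for Psn, -0.08 for nct, -0.03 for aph-1 and 0.37 for pen-2 in the authors' deposited table. Among 16 genes of receptor traffic and inhibition, 0 were called and 1 had an unadjusted p under 0.05 (edgeR) in the authors' deposited table. That gene was Nle, which modifies N signaling, at 0.62 (edgeR p-value 0.0204) in the authors' deposited table, and the lowest value was -0.52 for spdo, needed for N signaling in sense organ lineages.

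Of 12 nuclear cofactors, 0 were called in the authors' deposited table, against 1.34% of all genes. Of the same 12, 0 had an unadjusted p under 0.05 (edgeR), against 4.32% of all genes. Their values had mostly 1 sign, with 11 of 12 negative and a median of -0.22, from -0.42 for the acetyltransferase gene nej to 0.29 for the deacetylase gene HDAC1, listed as Rpd3. The co-activator mam, which binds the complex of N and Su(H), was at -0.37 (edgeR p-value 0.302) and the co-repressor H at -0.15 (edgeR p-value 0.598) in the authors' deposited table. Negative values also prevailed over all 98 listed genes, of which 73.5% were negative in the authors' deposited table, against 49.9% of all genes, with a median of -0.11. Across 6264 genes, which are not independent, exon length and the log2 fold change of the authors' deposited table had a Spearman rho of -0.26, and the listed genes had a median exon length of 4.36 kb against 2.25 kb for all genes. The part of length in these signs was not tested.

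Genes downstream of the boundary did not pass either. Of 10 targets with a row in the authors' deposited table, 0 were called and 3 had an unadjusted p under 0.05 (edgeR), 30.0% against 4.32% of all genes. The signal wg was at -0.57 (edgeR p-value 0.0295, FDR 0.862) in the authors' deposited table. The wing selector vg was at 0.82 (edgeR p-value 0.00372, FDR 0.195), with the opposite sign to wg, in the authors' deposited table. The bHLH repressor gene E(spl)mgamma-HLH was at -1.05 (edgeR p-value 0.0196, FDR 0.643), and the homeobox gene ct at -0.03 (edgeR p-value 0.938), in the authors' deposited table. Adult muscle precursors also express ct and vg, and their part in these values was not tested. Of their 9 listed markers, which include ct itself, 3 were called higher in the wing disc, E(spl)m6-BFM among them.

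Among 14 genes of dorsal identity and of the control of ap, 0 were called in the authors' deposited table, against 1.34% of all genes. An unadjusted p under 0.05 (edgeR) was found for 2 of the 14, both negative, 14.3% against 4.32% of all genes. The homeobox gene Dr, which acts downstream of ap in dorsal cells, was at -0.72 (edgeR p-value 0.00654, FDR 0.289) in the authors' deposited table. The LIM-homeobox gene tup, which acts in the notum, was at -0.64 (edgeR p-value 0.0193, FDR 0.639) in the authors' deposited table. The highest value was 0.26 for vn, which encodes a ligand of the EGF receptor and acts upstream of ap. Ssdp, whose protein joins the complex of Ap and Chi, was at -0.14 (edgeR p-value 0.625) in the authors' deposited table, beside -0.08 for ap and -0.12 for Chi.

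The leucine-rich repeat relatives of caps and trn had a median of -0.29 over 12 genes in the authors' deposited table, with 0 called and 2 at an unadjusted p under 0.05 (edgeR). Fili was at -0.55 (edgeR p-value 0.0338) and haf at -0.59 (edgeR p-value 0.113) in the authors' deposited table. Con, an adhesion gene of muscle and motor neurons, was at 1.23 (edgeR p-value 0.0361) at a low mean of 0.20 log2 CPM in the authors' deposited table. Of these relatives, 10 of 12 (83.3%) were negative, beside 73.5% of all listed pathway genes and 49.9% of all genes. That is the sign of trn, while caps was at 0.01. Among 7 genes of boundary mechanics 0 were called and 0 had an unadjusted p under 0.05 (edgeR) in the authors' deposited table, with values from -0.45 for the myosin gene Myo10A to 0.18 for Rho1.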

How the data were processed

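RNA from 3 haltere disc and 3 wing disc samples, grouped by title, was sequenced as directional paired-end libraries, per the labels' protocols. The authors used HISAT2, HTSeq, edgeR and build dm6, per the submitters' processing notes, which do not state the role of each. Annotation, count filter and model terms are not given in the sources used here. The authors deposited 1 table of their comparison, with log2 fold change, log2 CPM, p-value and FDR for 7767 rows, 5 of which are read-counter summary lines and were left out. Benjamini-Hochberg adjustment over all rows matched the deposited FDR to within 6.24e-06. A call is an FDR under 0.05.

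Computed here (Python 3.11.15, pandas 2.3.3, scipy 1.17.1) were tissue levels, taking mean CPM as the average of both tissues, levels per kb of exon, and 95% intervals from the deposited p-values. The arithmetic of the adjustment and of the implied standard errors was checked on simulated normal values. That check cannot show whether the intervals have the right width for these data. The file has 0 further columns of samples. The design text calls the replicates biologically independent.

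Members and lists were chosen with earlier results of these data known. Genes named are the members, and in each list those with an FDR or unadjusted p under 0.05 and the extremes. Others (the gamma-secretase subunits, neur, mib1, mib2, mam, H, Ssdp, Tom and E(spl)malpha-BFM) were chosen after their values were seen. Of the listed names, 9 were matched through a synonym or an older symbol.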

Additional observations from a re-analysis of the deposited data

Results flagged for a closer look

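The signal outside the gene comparison was in the 5 read-counter summary lines that stayed in the authors' deposited table. With mean expression turned back to CPM, they held 43.3% of the total. The CPM of every member is relative to a total that includes these reads, and taking the lines out would raise each member's mean log2 level by 0.82 and leave their order as it is. The log2 fold changes of the 5 lines ran from 0.01 to 0.65. What their removal before normalization would do to the members' fold changes was not tested. Outliers among replicates and differences between subgroups could not be looked for without values per sample.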

How the results depend on the processing

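The count of members called was 0 under every setting that used an adjusted p-value. An FDR under 0.01, the Bonferroni adjustment and a required change of 1 or more (log2) are stricter, so they could only remove calls. Recomputed Benjamini-Hochberg values repeat the deposited FDR. An FDR under 0.1, removal of the summary lines and a minimum mean of 1 log2 CPM could have added calls. The lowest deposited FDR of a member was 0.495, for Bx, far above these thresholds. The count of 0 was thus hardly free to change, and no stability is concluded from it. At an unadjusted p under 0.05 the count was 1. The adjusted p of Bx ranged from 0.494 to 1. The count of other pathway genes called stayed at 2 under these settings, except that the Bonferroni adjustment gave 1, with Ocho at 0.784, and an unadjusted p gave 12. All of these start from the deposited p-values, so no fold change can move. Levels per kb moved for 3 of 9 members with the longest transcript as length. No paired analysis was possible because the table holds no values per sample, and for the same reason leaving out a replicate, other size factors and filters on counts were not run.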
